A study of Mus musculus with 24 samples.

Results

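Vascular smooth muscle and leptomeningeal cells are minor populations of the cortex, and 9 genes that mark them were followed here in bulk RNA of mouse frontal cortex. The genes were chosen by name among the 57180 genes of the deposited table. Acta2, Tagln and Myh11 stand for vascular smooth muscle, and Dcn, Lum, Col1a1, Col1a2, Igf2 and Ogn for leptomeningeal cells and fibroblasts around vessels. All mice were male, wild type and of the C57BL/6 strain, entered at 4 weeks of age, and were injected intraperitoneally with about 200 µl once a day for 28 days. The 4 groups received memantine (20 mg/kg) together with sarcosine (100 mg/kg), here called the combination, sarcosine alone (100 mg/kg), memantine alone (20 mg/kg), or vehicle. Memantine is an open-channel blocker of the NMDA receptor, and sarcosine is N-methylglycine, which blocks the glycine transporter GlyT1. Each group has 6 libraries of frozen tissue punches, 24 in all. A punch is a mixture of neurons, glia, vessels and whatever pia is attached, and the labels do not say whether the meninges were stripped. Nothing in the labels says that libraries of a group came from separate animals, so p-values measure the spread between these samples, which may be partly technical.

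Smooth muscle cells wrap the arteries and arterioles that dive into the cortex and set their diameter. Their contractile genes are switched on by serum response factor (SRF) and its partner myocardin, which act at a DNA element named the CArG box. The leptomeninges are the pia and arachnoid, thin layers of fibroblast-like cells that lie on the cortex and follow the larger vessels inwards. They secrete collagen I, small leucine-rich proteoglycans and growth factors such as IGF2 into the brain's surface and perivascular matrix. A cortical punch reaches these cells only at the pial surface and along penetrating vessels.

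Among the smooth muscle genes, Acta2 (chromosome 19) encodes smooth muscle alpha-actin, Myh11 (chromosome 16) the smooth muscle myosin heavy chain, and Tagln (chromosome 9) the actin-binding protein transgelin. Among the leptomeningeal genes, Col1a1 (chromosome 11) and Col1a2 (chromosome 6) encode the chains of collagen I. Dcn and Lum, both on chromosome 10, and Ogn (chromosome 13) encode decorin, lumican and osteoglycin, proteoglycans that bind collagen fibrils. Igf2 (chromosome 7) is the imprinted gene of insulin-like growth factor 2.

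Promoters of some of these genes are shown as background, and their part in how the genes vary between libraries was not tested. RefSeq promoters on GRCm38.p6 were held for 4 of the 9 genes, Acta2, Col1a2, Igf2 and Ogn, and 3 are printed as the 250 bases before the transcription start, in the direction of transcription. Capitals mark matches, on either strand, to the CArG box (allowing 1 departure from A or T among its 6 inner bases), to the CCAAT box, to the TATA motif, searched as TATAA, and to the GC box, searched as GGGCGG. The Acta2 window is chr19:34255374-34255623 on the minus strand, that of Col1a2 is chr6:4505368-4505617 on the plus strand, and that of Ogn is chr13:49607765-49608014 on the plus strand.
Acta2: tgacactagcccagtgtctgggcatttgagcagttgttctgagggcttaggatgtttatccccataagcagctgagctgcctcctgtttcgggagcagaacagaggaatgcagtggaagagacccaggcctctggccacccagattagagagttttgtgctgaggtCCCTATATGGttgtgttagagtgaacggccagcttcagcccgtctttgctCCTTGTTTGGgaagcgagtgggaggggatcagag
Col1a2: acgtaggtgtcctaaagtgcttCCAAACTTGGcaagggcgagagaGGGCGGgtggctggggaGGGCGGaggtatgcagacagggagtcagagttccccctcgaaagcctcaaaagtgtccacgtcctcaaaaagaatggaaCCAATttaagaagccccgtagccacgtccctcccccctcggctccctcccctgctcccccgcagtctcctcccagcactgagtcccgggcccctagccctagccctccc
Ogn: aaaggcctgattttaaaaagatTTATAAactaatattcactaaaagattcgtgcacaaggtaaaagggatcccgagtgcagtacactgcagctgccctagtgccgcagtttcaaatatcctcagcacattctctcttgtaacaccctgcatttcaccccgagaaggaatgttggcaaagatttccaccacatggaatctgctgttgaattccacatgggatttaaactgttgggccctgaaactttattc
The Acta2 window held 2 CArG boxes, CCCTATATGG at 84 to 75 bases and CCTTGTTTGG at 34 to 25 bases before the start. Such a box was found in 8.593% of 32851 RefSeq promoters of the same length, and the strict form with A or T at all 6 inner bases in 1.467%. The Col1a2 window held 1 CArG box (CCAAACTTGG, 228 to 219 bases before the start), 1 CCAAT box and 2 GC boxes. A CCAAT box was found in 33.85% and a GC box in 32.74% of all promoters. The Ogn window held overlapping matches to the TATA motif, on opposite strands, at 228 to 223 bases before the start, and this motif was found in 22.78% of promoters. Of the 4 Igf2 starts, 1 had a strict CArG box (CCATTTATGG, 155 to 146 bases before the start). A match is a description of the letters and was not tested as a binding site.

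Values are the authors' normalised counts, which are read counts scaled library by library with a size factor. The libraries held 14700861 to 15653093 reads with the combination, 17008198 to 21844579 with sarcosine, 12678114 to 19714592 with memantine and 15543738 to 17425235 with vehicle. Other markers of the labelled cell types differed in level, and some were sparse. Myl9, a myosin light chain of smooth muscle, ranged from 168 to 703 normalised counts, and Slc6a13, a GABA transporter of leptomeningeal cells, from 37.9 to 339.7. Cnn1, another contractile gene of smooth muscle, ranged from 2.32 to 59.7, and Slc47a1, another leptomeningeal gene, from 0 to 97.3. The labelled tissue was read from Slc17a7, which loads glutamate into the vesicles of cortical excitatory neurons, which was lowest in sarcosine replicate 1, at 3901 against a median of 31235 over all libraries. Ttr, the defining transcript of choroid plexus epithelium, reached 52720 in memantine replicate 3, 38155 in sarcosine replicate 1 and 33153 in combination replicate 1, against a median of 14.8 over all libraries. Across the 24 libraries the mean level of the choroid plexus list had Pearson r = -0.121 with that of Acta2 and Myh11 and 0.025 with that of the leptomeningeal genes. The first of these was -0.424 without vehicle replicates 1 and 3, -0.471 within the drug libraries and 0.935 within the 6 vehicle libraries, so the relation differed in sign between subsets. The second was -0.164 within the drug libraries and 0.670 within the vehicle libraries. Olfactory bulb neurons were read from Cdhr1, which reached 3464 in combination replicate 5, 3149 in sarcosine replicate 5 and 2891 in memantine replicate 5. Its median over all libraries was 229. The mean of 8 olfactory bulb genes had r = 0.193 with the leptomeningeal genes and -0.281 with Acta2 and Myh11. Within the drug libraries these were 0.508 and -0.141, and within the vehicle libraries -0.031 and -0.613. The part of choroid plexus or olfactory bulb RNA in the results was not tested.

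Acta2 ranged from 218 to 363 normalised counts in the combination libraries (median 326), from 178 to 519 with sarcosine (median 347), from 209.6 to 535 with memantine (median 341), and from 129 to 928 with vehicle (median 385). Myh11 ranged from 169 to 354 with the combination (median 259), from 171 to 489.8 with sarcosine (median 285), from 192 to 468 with memantine (median 294), and from 110.1 to 647 with vehicle (median 301). For both genes the 3 drug groups lay within the range of the vehicle libraries, whose replicate 1 was the lowest of all 24 and replicate 3 the highest. Means ± SD of Acta2 were 314 ± 57.7, 333 ± 116 and 345 ± 126 with combination, sarcosine and memantine, and 478 ± 279.7 with vehicle (n = 6 each).

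Tagln was all but missing. It ranged from 1.08 to 15.6 normalised counts with the combination (median 7.97), from 1.87 to 7.90 with sarcosine (median 3.98), from 1.79 to 7.50 with memantine (median 3.41), and from 2.05 to 11.2 with vehicle (median 5.25). These values rest on 1 to 14 reads per library, the groups overlapped, and Tagln was the only one of the 9 genes to miss the filter of at least 10 normalised counts in at least 6 libraries. Transgelin is normally an abundant transcript of smooth muscle, yet per kilobase of transcript it averaged 3.34 ± 2.13 normalised counts over the 24 libraries, beside 181 ± 82.9 for Acta2. In the GENCODE vM21 annotation, 67.9% of Tagln's exon bases (1349 of 1988) also lie in exons of the antisense gene Gm48529 or of Pcsk7, whose means were 4.54 and 304. Reads shared between genes can be dropped or split in counting, and the strand setting and annotation the authors counted with are not given in the sources used here, so the Tagln value is uncertain and its part in the low level was not tested. A similar overlap held for Igf2, where 64.5% of exon bases (3694 of 5723) lie in Gm49394, listed at 0 in every library, or Igf2os. Igf2 values are therefore uncertain too. The other 7 genes shared no exon base with another gene.

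The chains of collagen I behaved alike. Col1a1 ranged from 169.8 to 454 with the combination (median 206), from 139.8 to 313 with sarcosine (median 207), from 196 to 336 with memantine (median 264), and from 129 to 1033 with vehicle (median 297). Col1a2 ranged from 354 to 707 with the combination (median 509), from 428 to 557 with sarcosine (median 492), from 470.5 to 716 with memantine (median 580.3), and from 198 to 1083 with vehicle (median 566). As with the contractile genes, vehicle replicate 1 was the lowest library of all for both chains, and here replicates 3 and 5 were the highest. The ratio of Col1a1 to Col1a2 lay between 0.326 and 0.642 with the combination, between 0.327 and 0.562 with sarcosine, between 0.413 and 0.548 with memantine, and between 0.444 and 0.954 with vehicle. The upper vehicle value came from replicate 5, in which Col1a1 was at 1033 and Col1a2 at 1083.

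Of the proteoglycans, Dcn ranged from 108 to 207 with the combination (median 145), from 108 to 189.7 with sarcosine (median 127), and from 112 to 263 with memantine (median 201). The 6 vehicle libraries held 69.5, 185, 680.3, 195, 481 and 282 in the order of their replicate numbers (median 238). 4 of the vehicle libraries lay above every sarcosine library, replicate 2 lay inside the sarcosine range, and replicate 1 lay below all of the other 23 libraries. Lum ranged from 30.8 to 58.6 with the combination (median 40.7), from 23.6 to 56.3 with sarcosine (median 32.9), from 40.2 to 83.5 with memantine (median 53.9), and from 16.2 to 128 with vehicle (median 65.8). Ogn ranged from 24.3 to 111 with the combination (median 37.3), from 24.3 to 113 with sarcosine (median 54.2), from 31.3 to 164 with memantine (median 89.3), and from 17.9 to 286 with vehicle (median 63.7). In both genes the vehicle group again spanned the other groups, with its highest value in replicate 3.

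Igf2 was low and uneven. It ranged from 3.31 to 46.5 with the combination (median 18.6), from 12.3 to 42.5 with sarcosine (median 27.2), from 8.54 to 59.7 with memantine (median 21.7), and from 12.8 to 50.5 with vehicle (median 34.7), and the groups overlapped. Its highest library was memantine replicate 3, which also had the highest Ttr. Igf2 was not the highest of its group in the other libraries with high Ttr, at 28.1 in sarcosine replicate 1 and 21.7 in combination replicate 1.

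**Figure D1:**
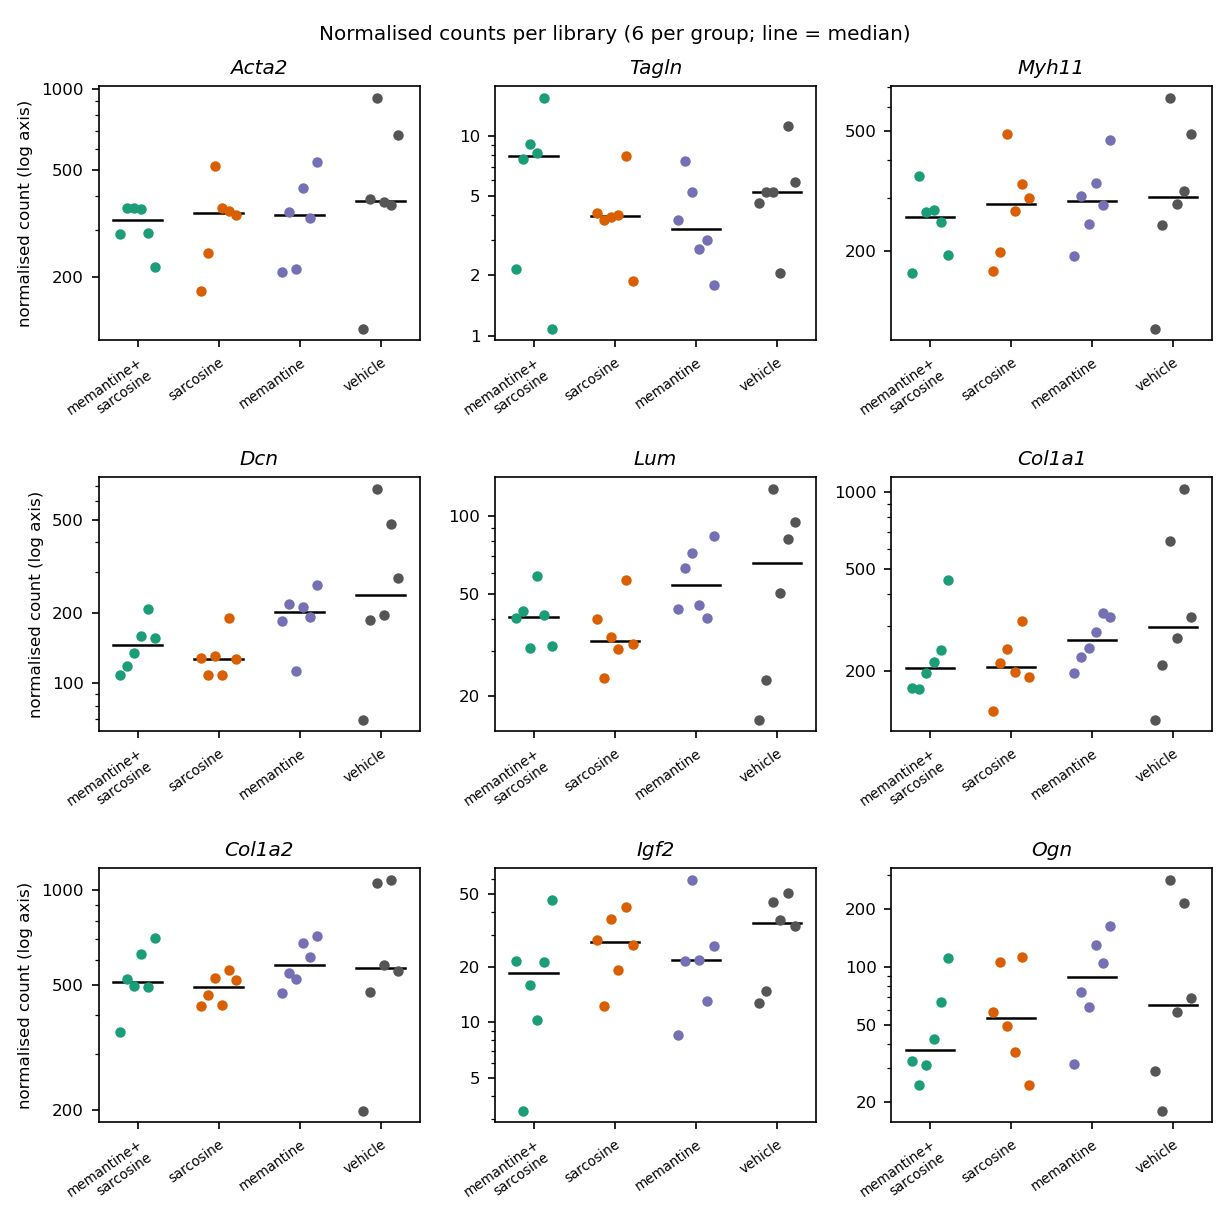
Normalised counts of the 9 genes (log axis) in each of the 24 libraries by treatment group, with 1 point per library in the order of the replicate numbers and a line at the median of the 6 libraries. Vehicle replicate 1, the leftmost vehicle point, is the lowest of all libraries for Acta2, Myh11, Dcn, Lum, Col1a1 and Col1a2, and Tagln never exceeds 15.6.

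Dividing by the length of the longest transcript in GENCODE vM21 allowed levels to be set side by side. Per kilobase, the means over the 24 libraries were 181 ± 82.9 (SD) for Acta2, 106 ± 35.5 for Col1a2, 49.0 ± 32.5 for Col1a1, 45.8 ± 18.6 for Myh11, 42.2 ± 28.1 for Dcn, 31.5 ± 25.6 for Ogn, 20.4 ± 10.6 for Lum, 5.53 ± 3.12 for Igf2 and 3.34 ± 2.13 for Tagln. Only the steps from Col1a2 to Col1a1 and from Lum to Igf2 exceeded the larger of both SDs, and each had the same order in 24 of 24 libraries. Of the other neighbours in this order, Acta2 lay above Col1a2 in 22 of 24 libraries and Col1a1 above Myh11 in 12 of 24.

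In the comparison of sarcosine with vehicle, none of the genes passed an adjusted p of 0.05 (limma on log2 values, Benjamini-Hochberg over 16578 genes), where 9.34% of all tested genes were called. All 8 tested genes had a negative log2 fold change, from -0.93 to -0.13 with a median of -0.35, while the median over all genes was -0.0032. The 8 estimates share the same vehicle libraries. Each log2 fold change by limma is a difference of mean log2 values, so it need not match the ratio of the printed means. Dcn had the largest, at -0.93 (SE 0.35; 95% interval -1.67 to -0.20; unadjusted p = 0.0147, adjusted p = 0.103 by limma), with means ± SD of 132 ± 30.0 in sarcosine libraries and 315 ± 225 in vehicle libraries. No other gene of the 8 had an unadjusted p under 0.05. Col1a1 followed at -0.70 (interval -1.43 to 0.036; adjusted p = 0.253), with 217 ± 58.4 in sarcosine libraries and 436 ± 342 in vehicle libraries. The other 6 lay between -0.56 for Lum and -0.13 for Myh11, with adjusted p-values of 0.410 and 0.882 by limma. The smooth muscle genes had smaller estimates, -0.36 for Acta2 (interval -1.07 to 0.35) and -0.13 for Myh11 (interval -0.79 to 0.54).

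Whether Dcn passed depended on the vehicle libraries and on the method. The main fit pools the spread over all 4 groups, while the log2 SD of Dcn was 1.15 with vehicle and 0.29 with sarcosine. Fitted by limma to the sarcosine and vehicle libraries only, Dcn had an unadjusted p of 0.0510 (adjusted p = 0.245). Count models on the recovered reads put it at -1.27 (edgeR, adjusted p = 0.0217) and -1.26 (DESeq2, adjusted p = 0.00351), and DESeq2 also called Col1a1 (-1.01, adjusted p = 0.0362). Without vehicle replicate 1, its lowest library, Dcn was called by limma (-1.30, adjusted p = 0.00936). Without vehicle replicates 3 and 5, its highest libraries, the estimate was -0.33 with an adjusted p of 0.577, and 4 of the 8 genes turned positive. Fewer leptomeningeal cells in a punch and less RNA per cell cannot be told apart in such bulk samples, in this comparison or the others.

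With memantine alone no change passed the test. None of the 8 tested genes was called by limma, edgeR or DESeq2, none had an unadjusted limma p under 0.05, and 0.0121% of all genes were called by limma. The log2 fold changes ran from -0.42 for Igf2 to 0.21 for Ogn, with 3 positive (Lum, Col1a2 and Ogn) and 5 negative and a median of -0.18. Those 3 positive estimates were negative with edgeR and DESeq2. Dcn averaged 197 ± 49.7 in memantine libraries and 315 ± 225 in vehicle libraries, a log2 fold change of -0.38 (interval -1.11 to 0.35).

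The combination was set against the same vehicle libraries. None of the 8 genes was called by limma, where 0.543% of all genes were (0.139% higher and 0.404% lower), and all 8 estimates were negative, with a median of -0.49. Igf2 had the largest at -0.84 (interval -1.86 to 0.18; adjusted p = 0.466), from 19.8 ± 14.8 in combination libraries and 32.1 ± 15.5 in vehicle libraries. Dcn was at -0.78 (interval -1.51 to -0.051; unadjusted p = 0.0372, adjusted p = 0.311 by limma), with 147 ± 35.6 in combination libraries and 315 ± 225 in vehicle libraries. DESeq2 called it, at -1.10 with an adjusted p of 0.0400, and edgeR did not (adjusted p = 0.123). With only the combination and vehicle libraries in the limma fit, its unadjusted p was 0.0872 (adjusted p = 0.502). Ogn was at -0.68 and Col1a1 at -0.59, and the remaining 4 lay between -0.39 for Acta2 and -0.13 for Col1a2.

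**Figure D2:**
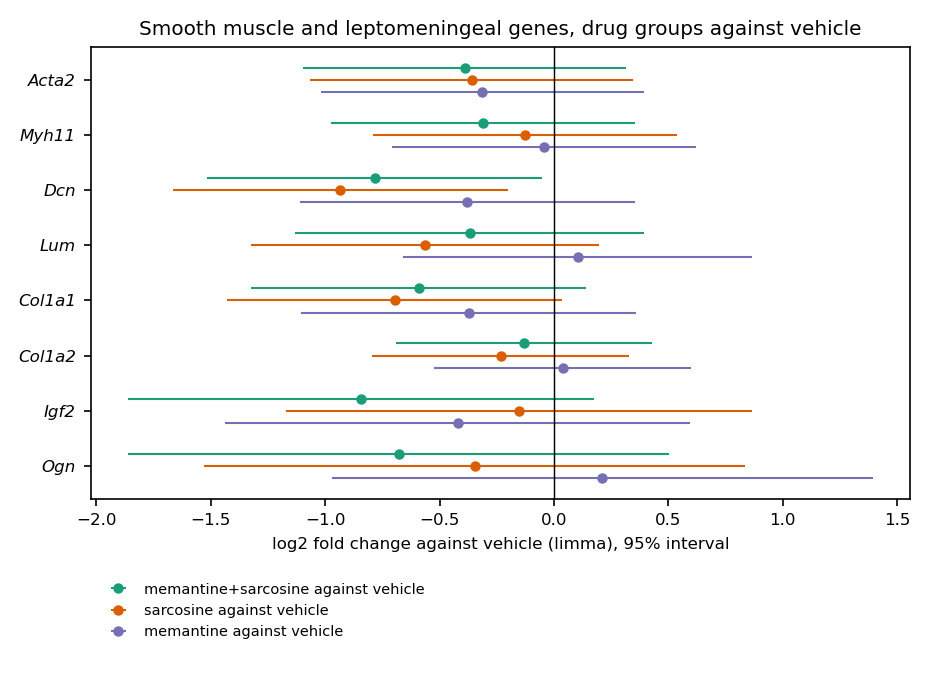
Log2 fold change of each tested gene in the combination, sarcosine and memantine groups against vehicle, with 95% intervals from limma (6 libraries per group). Apart from Dcn under sarcosine and the combination, every interval crosses 0. The intervals rest on a spread pooled over all 4 groups, although the vehicle libraries spread more widely for most of these genes. They are not adjusted for the number of genes.

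The combination was also set against each drug alone, which asks what the second drug adds. Against sarcosine, no gene of the 16578 was called by limma (0%; 1443 at an unadjusted p under 0.05; 45 called by DESeq2 and 0 by edgeR), the 8 tested here included. The 8 estimates ran from -0.69 for Igf2 to 0.20 for Lum, 4 in each direction. Dcn averaged 147 ± 35.6 with the combination and 132 ± 30.0 with sarcosine, a log2 difference of 0.15 (interval -0.58 to 0.88). Against memantine, 0.0543% of genes were called and none of the 8, although all 8 estimates were negative, with a median of -0.33. Ogn had the largest, at -0.89 (interval -2.07 to 0.29), from 51.1 ± 32.8 with the combination and 94.6 ± 48.5 with memantine. In the interaction, which tests whether the combined effect differs from the sum of the single effects, 1.82% of all genes were called (0.579% positive and 1.24% negative) and none of these 8. The interaction estimates ran from -0.54 for Ogn to 0.53 for Dcn, each with an interval that included 0. In these 3 contrasts none of the 8 genes had an unadjusted limma p under 0.05, and neither edgeR nor DESeq2 called one.

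The spread between libraries was wide, and widest with vehicle. The SD of log2 values among vehicle libraries had a median of 1.03 over the 8 genes, against 0.360 with the combination, 0.468 with sarcosine and 0.430 with memantine. For all tested genes the median SD of a group lay between 0.212 and 0.244. In 7 of the 8 genes the vehicle group had the largest SD, whereas it did so for 23.9% of all tested genes. The exception was Igf2, whose SD was 1.16 with the combination and 0.81 with vehicle. Col1a2, for example, had an SD of 0.34 with the combination, 0.16 with sarcosine, 0.23 with memantine and 0.90 with vehicle. Pooled within groups, the median SD was 0.653 for the 8 genes and 0.247 for all tested genes. The SD depends on the level of a gene. Among genes of similar mean, the 8 genes lay between percentiles 80.6 (Lum) and 95.8 (Dcn) of the SD. Differences between group means held a median of 12.2% of the variance of the 8 genes and 15.3% of that of all genes. Such a share is above 0 even without any effect of treatment, so it was not read as an effect.

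The vehicle spread came from the same few libraries in gene after gene. Vehicle replicate 1 ranked lowest of all 24 for 6 of the 9 genes. Vehicle replicate 3 was among the highest 3 libraries for 7 of the 9 genes and vehicle replicate 5 for 6. Replicate 3 led in both smooth muscle and leptomeningeal genes, with Acta2 at 928 and Dcn at 680.3. In replicate 5 the high genes were Dcn, Col1a1, Col1a2, Igf2, Ogn and the sparse Tagln, with Col1a1 at 1033 beside an Acta2 of 371, which lay within the range of every drug group's libraries except the combination's, whose highest was 363. Drug libraries also reached high ranks, and memantine replicate 6 was among the highest 3 for 4 of the genes.

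**Figure D3:**
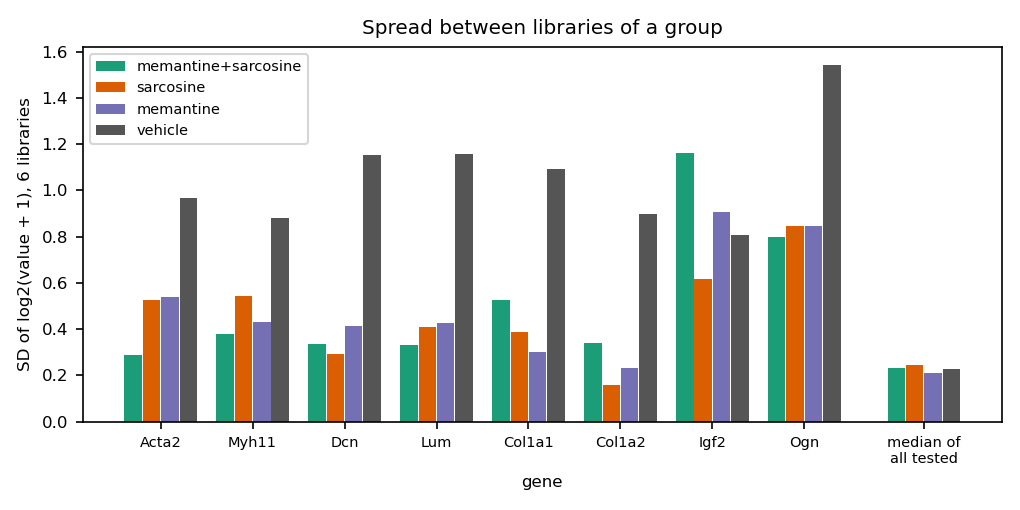
SD of log2(value + 1) among the 6 libraries of each group for the 8 tested genes, with the median SD of all tested genes at the right. The vehicle bar is the tallest for every gene but Igf2, and it is 1.54 for Ogn.

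Across the 24 libraries most of the genes varied together, in 2 overlapping sets. Acta2 and Myh11 followed each other most closely (Pearson r = 0.936, Spearman rho = 0.843, adjusted permutation p 6e-05 for r and 0.00012 for rho, over 36 pairs), and r was 0.886 without vehicle replicates 1 and 3, the libraries farthest from the median. Among the 15 pairs of leptomeningeal genes r ran from 0.398 (Dcn and Igf2) to 0.861 (Col1a1 and Col1a2), with a median of 0.701. Between the sets, over 12 pairs without Tagln, the median r was 0.580, and Tagln had r from -0.147 to 0.215 with the other genes. The median r between tested genes in general was -0.0029. Positive and negative r balance in such a median, so it does not show how often other pairs reach a high r. The genes were chosen with earlier results of these data known, so the p-values of pairs are descriptive. Of the 36 pairs 23 passed an adjusted permutation p of 0.05 by Pearson's r and 21 by Spearman's rho, and 23 did so after group means were removed. Only 8 passed without the 2 libraries farthest from the median of the first gene, which were vehicle libraries for every first gene but Tagln and Igf2. Of these 8 pairs 7 were leptomeningeal and 1 was Acta2 with Myh11, and none linked the sets. Leaving out the extreme libraries also narrows the range of values. Between the sets, Spearman's rho without them ran from 0.0796 for Acta2 with Ogn to 0.598 for Myh11 with Col1a2 (0.255 and 0.684 with all libraries). The next highest were 0.502 for Myh11 with Dcn, 0.499 for Myh11 with Lum and 0.492 for Acta2 with Dcn. The median Pearson r of these 12 pairs without the extreme libraries was 0.309. Within drug libraries alone the median r of the 28 pairs without Tagln was 0.368, and within the 6 vehicle libraries it was 0.861.

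**Figure D4:**
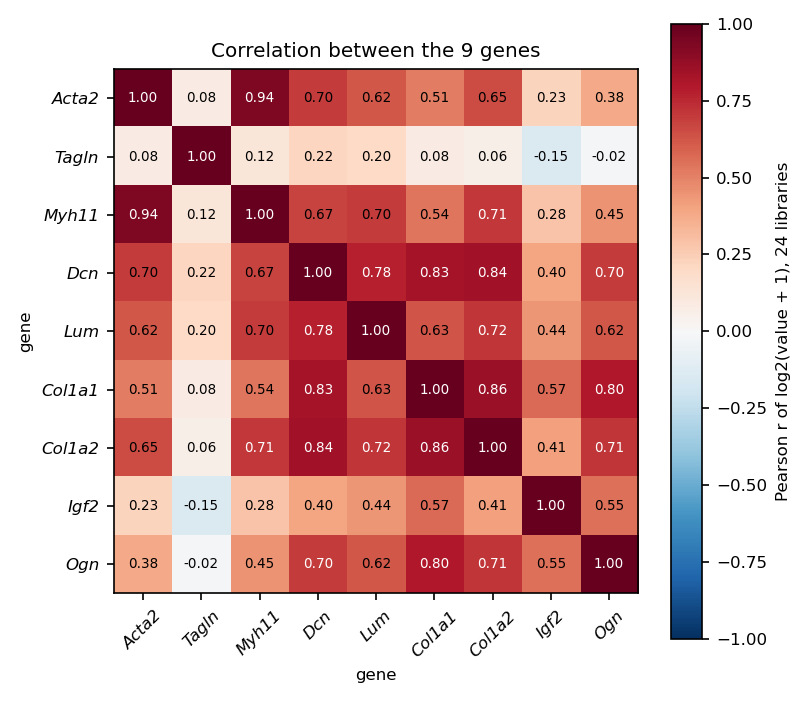
Pearson r of log2(value + 1) between each pair of the 9 genes over 24 libraries, with colour from blue (-1) to red (1). Acta2 with Myh11 (0.94) and the block from Dcn to Col1a2 stand out, the Tagln row stays near 0, and Igf2 is weaker with the smooth muscle genes.

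The mean centred log2 value of Acta2 and Myh11, and that of the 6 leptomeningeal genes, gave each library a level for either set. These levels are descriptions, and the genes that make them up were chosen with results known. The sets had r = 0.614 and rho = 0.532 with each other, and r = 0.329 without vehicle replicates 1 and 3. The leptomeningeal level ran from -1.16 in vehicle replicate 1 to 1.49 in vehicle replicate 3, and the smooth muscle level from -1.36 to 1.34 in the same libraries.

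**Figure D5:**
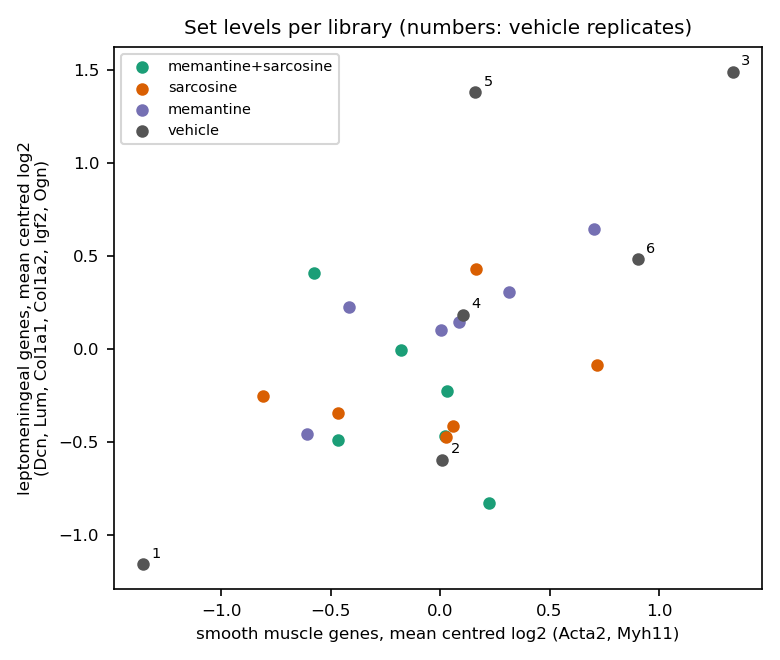
Mean centred log2 value of the 6 leptomeningeal genes (vertical) against that of Acta2 and Myh11 (horizontal), with 1 point per library and the vehicle replicates numbered. Vehicle replicates 1 and 3 mark opposite corners, and vehicle replicate 5 is high in the leptomeningeal level (1.38) but not in the smooth muscle level (0.16).

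Other genes of the same cell types varied with these levels to different degrees. The smooth muscle level had r = 0.828 with the mean of 17 other genes listed with smooth muscle (0.666 without vehicle replicates 1 and 3). Most of the list is contractile, but not all of it, Ckb being 1 exception. Taken singly, those genes had a median r of 0.463, from -0.292 for Ckb to 0.911 for Cnn1. The leptomeningeal level had r = 0.650 with the same mean of 17 genes (0.442 without vehicle replicates 3 and 5). It had r = 0.900 with the mean of 31 other leptomeningeal and fibroblast genes (0.797 without vehicle replicates 3 and 5). It also had r = 0.591 and rho = 0.716 with 7 genes of border macrophages, which live beside the pia and along vessels (r = 0.647 without vehicle replicates 3 and 5). Of 31 such relations 5 had an absolute r of at least 0.5, and 3 had one without the farthest libraries. Pericytes and endothelium were less closely related, at r = 0.362 and 0.389 for the leptomeningeal level and 0.118 and 0.202 for the smooth muscle level. Arterial endothelium had r = 0.414 with the leptomeningeal level and 0.483 with the smooth muscle level (0.010 and 0.312 without the farthest libraries). Whether cell content explains these relations was not tested.

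The genes most like each set were named among those with a mean of at least 50, by Pearson's r over the 24 libraries. For smooth muscle they were Myl9 (r = 0.891), the elastin gene Eln (0.828), the actin regulator leiomodin Lmod1 (0.825), the tropomyosin Tpm2 (0.801) and the collagen III gene Col3a1 (0.752). For the leptomeningeal set they were the scavenger receptor gene Colec12 (0.889), the complement C1 inhibitor gene Serping1 (0.878), Col3a1 (0.861), the laminin gene Lamc3 (0.834) and the collagen receptor gene Mrc2 (0.832). Col3a1 stood on both lists, and it ranged from 24.3 in vehicle replicate 1 to 399 in vehicle replicate 3.

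Genes with related roles were read from lists written with earlier results of these data known. Of the 17 tested genes listed with smooth muscle 1 fell under sarcosine relative to vehicle and none rose, where 4.62% of all genes were called lower. Of the 17 estimates 15 were negative, with a median of -0.36. They share the same vehicle libraries, and the mean of the list varied with the smooth muscle level (r = 0.828), so they are not independent. The gene that fell was Pln, which encodes phospholamban, a brake on the calcium pump of the muscle store, at 4.56 ± 1.45 in sarcosine libraries and 12.5 ± 6.13 in vehicle libraries (log2 fold change -1.15, SE 0.31, adjusted p = 0.0213 by limma). These values lie close to the filter of 10 normalised counts. Of 9 genes of SRF, myocardin and their partners 8 were tested and none was called under any drug against vehicle. Myocd, the myocardin gene, missed the filter, with a mean of 3.72 normalised counts over all libraries. The smallest p in the sarcosine comparison belonged to the myocardin-related factors Mrtfb at 0.33 (adjusted p = 0.113) and Mrtfa at 0.26 (adjusted p = 0.138), both given as values.

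Of 31 other leptomeningeal and fibroblast genes 1 fell under sarcosine and none rose, beside the same 4.62% of all genes called lower. Of the estimates 28 were negative, with a median of -0.47. They share the same vehicle libraries, and the mean of the list varied with the leptomeningeal level (r = 0.900), so they are not independent. The list was not read without vehicle replicates 3 and 5. Mfap4, a microfibril protein gene, averaged 22.0 ± 3.99 in sarcosine libraries and 45.6 ± 13.96 in vehicle libraries (log2 fold change -0.99, SE 0.20, adjusted p = 0.00351 by limma). It followed the leptomeningeal level less closely than most, at r = 0.443 against a median of 0.643 for that list. In the combination and memantine groups no gene of that list was called against vehicle, with medians of -0.45 and -0.24. Among 9 other small leucine-rich proteoglycans none was called in a comparison with vehicle. Bgn, which encodes biglycan, a close relative of decorin, came nearest under sarcosine at -0.76 (adjusted p = 0.0507), with 292 ± 70.5 in sarcosine libraries and 535 ± 270.4 in vehicle libraries. Fmod, the gene of fibromodulin, had -0.77 (adjusted p = 0.373). The 18 enzymes and chaperones that modify and process collagen I had no call against vehicle either. The smallest p under sarcosine was that of the crosslinking enzyme gene Lox, at -0.80 (adjusted p = 0.263), and of the collagen chaperone gene Serpinh1, at -0.39 (adjusted p = 0.374).

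Most receptors and signalling genes around these ligands did not pass the test under sarcosine. In the IGF system 2 of 16 tested genes rose and none fell, with a median of 0.06. Igf2r, the receptor that takes up and clears IGF2, averaged 747 ± 52.2 in sarcosine libraries and 632 ± 30.5 in vehicle libraries (log2 fold change 0.24, SE 0.059, adjusted p = 0.0117 by limma). Insr, the insulin receptor, averaged 914 ± 82.6 with sarcosine and 782 ± 54.2 with vehicle (0.22, SE 0.069, adjusted p = 0.0411 by limma). In the TGF-beta pathway 2 of 18 genes rose and 1 fell. The signal transducer Smad4 (0.29, adjusted p = 0.00605) and the repressor Skil (0.49, adjusted p = 0.0378) rose, and the ligand Tgfb1 fell (-0.35, adjusted p = 0.0411). These shares stand beside 4.72% of all genes called higher and 4.62% called lower with sarcosine. None of these 5 genes was called with the combination or memantine against vehicle, and whether the drug effects on them differ was not read from this.

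Markers of other cells of the vessel wall had calls in both directions. Among 12 pericyte genes 2 rose under sarcosine and none fell, beside 4.72% of all genes called higher and 4.62% called lower. These were Abcc9, a subunit of the vascular potassium channel, at 180.0 ± 29.8 with sarcosine and 119.6 ± 19.8 with vehicle (0.58, adjusted p = 0.0048), and the receptor Notch3, which smooth muscle also carries, at 310.5 ± 45.9 and 209 ± 35.7 in those groups (0.57, adjusted p = 0.00499). Among 12 endothelial genes the secreted factor Egfl7 fell under sarcosine (-0.59, adjusted p = 0.0243), and with the combination the glucose transporter Slc2a1 rose (0.75, adjusted p = 0.0455). Of 8 arterial endothelial genes, Gkn3 fell with the combination, at 12.9 ± 13.6 beside 42.0 ± 9.51 with vehicle (-2.00, adjusted p = 0.0204). With the combination 0.139% of all genes were called higher and 0.404% lower. The list medians with sarcosine were 0.08 for pericytes and 0.01 for endothelium, beside -0.35 for the 8 genes. Lists of cells outside the vessels also departed from 0 under sarcosine, with none of their genes called. All 6 myelin genes had negative estimates (median -0.49), as did all 5 tested mitochondrial mRNAs (median -0.27, 4 at an unadjusted limma p under 0.05) and 7 of 8 genes of cortical excitatory neurons (median -0.31). All 8 genes of striatal neurons had positive estimates (median 0.64). The part of tissue content in the values of the 8 genes was not tested. Summed levels of the pericyte list ranged from 3598 to 3970 with the combination, 3700 to 4953 with sarcosine, 3517 to 4606 with memantine and 3362 to 5142 with vehicle.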

How the data were processed

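RNA of 24 frontal cortex punches was sequenced after NEBNext Ultra II library preparation, per the labels' protocols. The deposited values are a signal per gene and library, read counts that the authors scaled library by library with a size factor. FastQC, STAR, featureCounts 1.6.0, DESeq2 1.42.1 and the mm39 build are named in the submitters' processing notes, while the annotation release, strand setting and filters are not given in the sources used here. Dividing by the step between values gave whole reads for 100% of values in every library (tolerance 0.01), and edgeR on those reads called 1615 genes between sarcosine and vehicle, 3 with memantine alone and 70 under the combination. The 525 rows without a gene name were kept under their gene identifier and went through the same expression filter, and 0 sample columns were left unused.

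Values were tested as log2(value + 1) with limma 3.58.1 (trended empirical Bayes, R 4.3.3) over all 24 libraries, for the 16578 genes with at least 10 normalised counts in at least 6 libraries. P-values were adjusted by Benjamini-Hochberg over all of them, and an adjusted p under 0.05 was called. A fold change on this scale understates the change of low genes. Alternatives were count models fitted to the recovered reads (edgeR 4.0.16, DESeq2 1.42.0), other scalings, pseudocounts and filters, library weights, a length and GC correction, a replicate block and leaving out libraries. Leaving out pairs of vehicle libraries was chosen after seeing the data. Correlations used permutation tests, two-sided, in Python 3.11.15 with scipy 1.17.1. The limma fit alone was run on simulated counts, which held no outlying vehicle libraries and so do not cover the spread seen here.

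The 9 genes and all gene lists were chosen with earlier results of these data known. Named are all 9 genes, from each list its called members (at most 4) or otherwise the 2 of smallest p, the defining markers, and the 5 genes most like each set.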

Additional observations from a re-analysis of the deposited data

Results flagged for a closer look

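Of 36 sets of 1 gene in 1 group, 3 had a library far from the other 5, judged by its gap to the nearest library relative to the group's range, and chance alone flags about 1 in 20 such sets. Dcn in sarcosine replicate 5 was at 189.7 normalised counts, and the next library was at 131. Col1a1 in combination replicate 6 was at 454, and the next was at 242. Igf2 in memantine replicate 3 was at 59.7, and the next was at 26.0. Memantine replicate 3 also had the highest Ttr of all libraries, at 52720, and the part of choroid plexus RNA in its Igf2 value was not tested. Nor was the part of olfactory bulb RNA in the Dcn and Col1a1 values.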

How the results depend on the processing

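With sarcosine against vehicle no gene of the 8 was called, but 1 was with edgeR, 2 with DESeq2, 1 with library weights and 1 without vehicle replicates 1 and 3, and 0 to 1 when each library was left out in turn. With the combination against vehicle DESeq2 called 1. The 23 passing pair correlations became 8, and the 5 set relations with an absolute r of at least 0.5 became 3, without the farthest libraries. Of 706 values per gene under 15 other settings, 671 kept direction and call, 29 reversed and 6 became called. Under upper-quartile scaling Col1a2 was at -0.0081 (memantine against vehicle) and Acta2 at 0.00028 (combination against sarcosine). For memantine against vehicle, Lum, Col1a2 and Ogn were at -0.19, -0.16 and -0.27 with edgeR and -0.18, -0.15 and -0.26 with DESeq2. Library weights gave Myh11 0.047 (sarcosine against vehicle), Lum -0.099 (memantine against vehicle) and Col1a1 -0.038 (combination against sarcosine). The length and GC correction gave Col1a2 -0.037 (memantine against vehicle) and Myh11 0.026 (interaction). Without vehicle replicates 1 and 3 Col1a2 was at -0.12 for memantine. Without vehicle replicates 3 and 5, sarcosine against vehicle gave Myh11 0.16, Col1a2 0.22, Igf2 0.21 and Ogn 0.54. Memantine then gave Myh11 0.24, Dcn 0.22 and Col1a1 0.25. The combination gave Lum 0.11, Col1a1 0.035, Col1a2 0.32 and Ogn 0.21, and the interaction Dcn -0.072, Lum -0.39, Col1a1 -0.15 and Col1a2 -0.39. The cause was not tested.

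Leaving out each library in turn gave 1152 values, of which 43 reversed and 1 became called. For sarcosine against vehicle the ranges that crossed 0 were -0.42 to 0.091 for Myh11, -0.37 to 0.047 for Igf2 and -0.74 to 0.049 for Ogn. For memantine they were -0.34 to 0.17 for Myh11, -0.22 to 0.36 for Lum, -0.27 to 0.22 for Col1a2 and -0.18 to 0.61 for Ogn, and for the combination -0.44 to 0.054 for Col1a2. The combination against sarcosine gave -0.20 to 0.11 for Acta2 and -0.095 to 0.22 for Col1a1, and against memantine -0.20 to 0.066 for Acta2. The interaction gave -0.36 to 0.15 for Myh11, -0.17 to 0.41 for Lum, -0.12 to 0.37 for Col1a2 and -0.57 to 0.12 for Igf2.

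Counts over all genes moved more. Sarcosine against vehicle called 187 (length and GC correction) to 3149 (library weights) genes beside 1548, memantine 1 to 424 beside 2, and the combination 1 to 473 beside 90. The combination against sarcosine called 0 to 45 beside 0, against memantine 4 to 61 beside 9, and the interaction 0 to 1516 beside 301. The labels do not say whether replicate numbers pair the libraries. Over 36 same-numbered pairs the median correlation was 0.106, and over 180 pairs of different numbers it was -0.016. In all, 6 of 24 libraries correlated best with their own number, and pairing was not tested further. With the replicate block 0 members were called in any comparison, and the counts over all genes were 1525, 4, 18, 0, 8 and 131 in the order above.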

Other observations

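Border macrophages and blood were read beside the vessel and meningeal genes, as values. With memantine against vehicle, 6 of 7 border macrophage genes had positive estimates, with a median of 0.55, and none was called by limma. Their medians against vehicle were 0.0088 for the combination and -0.062 for sarcosine, also with no call. All 5 blood genes had negative estimates in each drug group against vehicle, with medians of -0.13 for the combination, -0.60 for sarcosine and -0.57 for memantine, and none was called.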
